A study of Mus musculus with 6 samples.

Results

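Immunity-related GTPases (IRG proteins) are a family of interferon-inducible GTPases that act inside infected cells. This account follows 10 of the 55401 genes in the count tables: 5 IRG genes of chromosome 11 (Irgm1, Irgm2, Igtp, Tgtp1 and Tgtp2), 4 IRG loci of chromosome 18 (Iigp1, Gm4951, Gm4841 and Gm5970), and Smim3, a gene beside Iigp1 that belongs to no IRG group. The genes were selected on their CKO over CON differences in these same libraries, which were known when the list was drawn up, and the question put to them is how the 2 chromosomes contrast. Their fold changes are therefore given as descriptions, with a standard error and no p-value.

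The libraries are RNA sequencing of mouse spleen T cells of the CD4+ naive type, isolated on magnetic beads and given CD3 and CD28 stimulation for 24 h. The first group, called CKO, carries loxP-flanked Satb1 alleles and a CD4-Cre transgene and has the genotype label Satb1 conditional knockout (3 libraries). The second group, called CON, has the genotype label WT (3 libraries). Cre under Cd4 regulatory sequences acts from thymic stages on, in CD8 as well as CD4 lineage cells. The labels give no age or sex, do not say whether the CON mice carried Cre, and do not say which libraries are separate mice. The p-values below thus speak of the spread among these libraries alone, and that spread may be technical. SATB1 itself organizes chromatin in T cells and prefers AT-rich DNA.

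IRG genes are switched on mainly by interferon gamma, in part through the transcription factor IRF1. In mouse cells, effector IRG proteins such as Iigp1 (Irga6) and the Tgtp proteins (Irgb6) load onto the vacuoles of intracellular parasites and help to break them. The regulatory proteins Irgm1, Irgm2 and Igtp (Irgm3) sit on the cell's own membranes and hold the effectors inactive there, and the ATG8 conjugation system of autophagy is needed for the effectors to find the right membrane. RefSeq lists Ifgga2 as a synonym of Gm4951 and Ifgga3 as a synonym of Gm4841. Gm5970 is annotated as a processed pseudogene. Smim3 encodes a small integral membrane protein.

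In GRCm38 the chromosome 11 genes lie in a pair of stretches. Irgm1 (48861968 to 48871683), Tgtp1 (48985327 to 48994172) and Tgtp2 (49057194 to 49064206), all on the minus strand, span 202 kb. Igtp (58199556 to 58207591) and Irgm2 (58199618 to 58222782), both on the plus strand, span 23.2 kb and share first-exon bases.

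The promoters of the chromosome 11 genes are shown because 4 of them hold the same pair of interferon-response motifs at the same spacing. RefSeq promoter sequence (GRCm38.p6) was matched for 5 of the 10 genes, all on chromosome 11. In the 130 bases before each start, 2 motifs were searched on both strands: the interferon-stimulated response element as GAAA repeated after any 2 bases, and the gamma-activated site as TTCNNNGAA, which reads the same on both strands. All 5 held the response element, against 1.35% of 32851 mouse promoter windows of that length, and 4 held TTCNNNGAA, against 3.53%. Both motifs together occurred in 26 of the 32851 windows (0.0791%), among them Igtp, Irgm2, Tgtp1 and Tgtp2, and in each of these 4 the gamma-activated site began 11 bases before the response element. Igtp (chr11:58199426-58199555, plus), Irgm2 (chr11:58214847-58214976, plus) and Tgtp2 (chr11:49064213-49064342, minus) are shown over 130 bases. Tgtp1 (chr11:48992309-48992338, minus) and Irgm1 (chr11:48871425-48871454, minus) are shown over the 30 bases around their motifs, since their windows overlap annotated exons. The overlap was 12 of 130 bases for Tgtp1 and all 130 for Irgm1. The windows of Irgm2, Tgtp1 and Irgm1 lie inside the gene spans given above, so they precede RefSeq starts internal to those spans. Each is written 5′ to 3′ along its gene, with the motif matches in capitals.
Igtp: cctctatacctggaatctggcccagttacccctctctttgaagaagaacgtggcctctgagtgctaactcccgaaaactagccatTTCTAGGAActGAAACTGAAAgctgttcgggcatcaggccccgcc
Irgm2: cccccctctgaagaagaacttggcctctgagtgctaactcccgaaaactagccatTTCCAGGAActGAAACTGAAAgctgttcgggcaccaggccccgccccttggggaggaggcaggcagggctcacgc
Tgtp2: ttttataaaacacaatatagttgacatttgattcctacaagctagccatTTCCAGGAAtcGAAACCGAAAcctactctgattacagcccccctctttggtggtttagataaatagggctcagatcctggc
Tgtp1: ccatTTCCAGGAAtcGAAACTGAAAcctac
Irgm1: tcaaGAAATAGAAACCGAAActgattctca
The longest run of bases shared between windows was 38 for Igtp and Irgm2 and 27 for Tgtp1 and Tgtp2. The Irgm1 window had 2 overlapping matches to the response element and no match to TTCNNNGAA. Of the neighbouring IRG genes described further on, Gm12185 also held both motifs 11 bases apart, Gm12250 held both, and 9930111J21Rik1, 9930111J21Rik2 and Ifi47 held neither in this window. A match describes letters in a window and is not evidence of a bound site.

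On chromosome 18 the 5 genes span 290 kb: Gm4951 (60212080 to 60247820, plus), Gm5970 within it (60220843 to 60222058, plus), Gm4841 (60268305 to 60273272, minus), Iigp1 (60376027 to 60392634, plus) and Smim3 (60474191 to 60501987, minus).

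Reads counted on genes numbered 16621609 to 19023023 in CKO libraries and 14895389 to 20266626 in CON libraries. Satb1 itself had 426, 546 and 462 CPM in CKO libraries and 712, 851 and 727 CPM in CON libraries (CPM, reads scaled to library size with TMM factors). The difference was -0.68 on the log2 scale (SE 0.0866; adjusted p = 9.7e-05 by edgeR's quasi-likelihood test, Benjamini-Hochberg). CON replicate 1 stood apart from the other 2 CON libraries for most of the genes described here, although it was the deepest library. Its CPM divided by the mean of CON replicates 2 and 3 had a median of 0.998 over the 13364 genes tested, with the 5th and 95th percentiles at 0.681 and 1.31. For these all-gene values a small constant was added to both CPM terms. Without that constant, the ratio was 0.448 to 0.589 for the 5 chromosome 11 genes and 0 to 0.441 for the 4 chromosome 18 IRG genes, but 1.36 for Smim3. Results are therefore given with all 6 libraries and again without CON replicate 1.

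**Figure D1:**
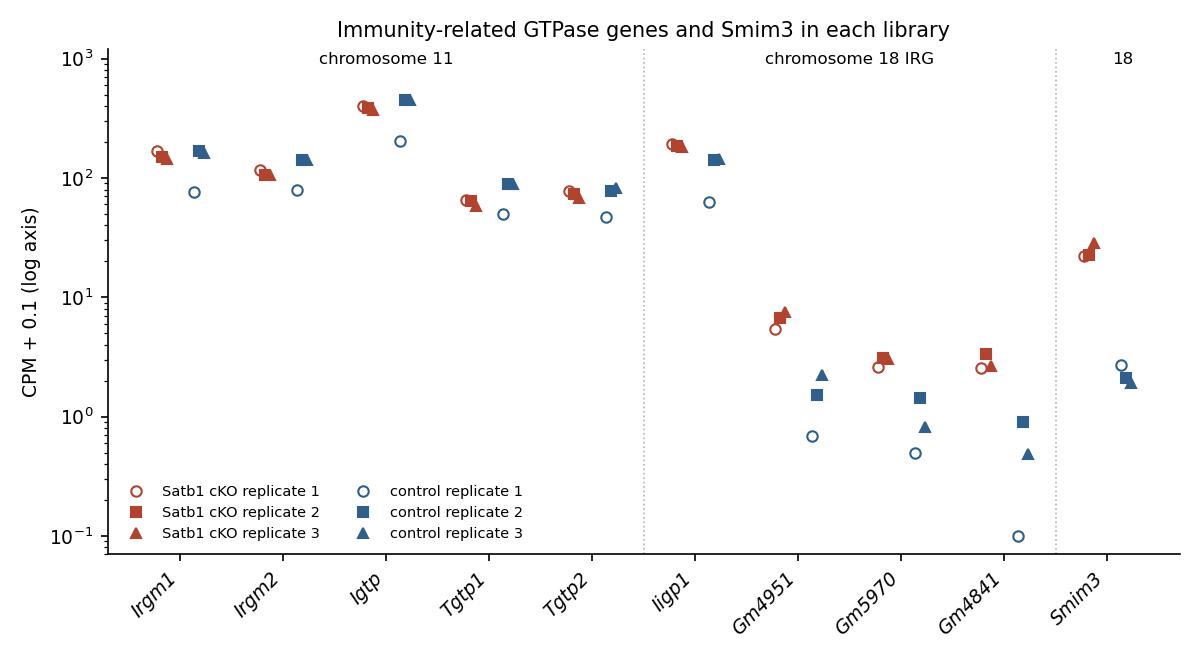
CPM of the 10 genes in each library, CKO left and CON right for each gene, with points for libraries. CON replicate 1 lies below both other CON libraries for 9 genes, the exception being Smim3.

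All 10 genes passed the low-count filter, Gm4841 and Gm5970 only through their CKO libraries (1 and 2 CON libraries exceeded the filter's 0.584 CPM). With all libraries, 5 of the 10 were called higher in CKO and 0 lower at an adjusted p under 0.05, where 42.3% of all genes tested were called (21.6% higher and 20.7% lower). Without CON replicate 1, 5 were called higher and 3 lower, where 42.5% of 13732 genes were called (21.1% higher and 21.4% lower). The libraries of the groups did not overlap for 5 genes higher and 0 lower, beside 27% and 26.5% of all genes tested, and without CON replicate 1 for 5 higher and 3 lower, beside 32.2% and 31.3%. The 5 genes called higher were the 5 on chromosome 18 in both fits. DESeq2 called 4 higher and 0 lower, beside 2522 higher and 2392 lower of 13364 genes. Since the list was drawn up on this contrast, nothing is read from these shares.

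The chromosome 11 genes had nearly level group means. Igtp, a regulatory IRG protein of the endoplasmic reticulum and lipid droplets, had 404, 388 and 369 CPM in CKO libraries and 203, 453 and 454 CPM in CON libraries. The 3 CKO libraries lay between the low CON replicate 1 and the other CON libraries. Its log2 fold change was 0.07 ± 0.22 (SE, n = 3 each), and -0.24 ± 0.04 without CON replicate 1. Irgm2, a regulatory protein of the Golgi, had 117, 105 and 105 CPM in CKO libraries and 78.7, 142 and 141 CPM in CON libraries, in the same arrangement. The log2 fold change of Irgm2 was -0.14 ± 0.17, and -0.38 ± 0.05 without CON replicate 1. Igtp and Irgm2 share 8% and 4.4% of their exon bases, so part of their reads could not be assigned.

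Irgm1, a regulatory protein of the Golgi and lysosomes that also protects lymphocytes, had 168, 151 and 143 CPM in CKO libraries and 75.8, 168 and 161 CPM in CON libraries. The groups overlapped with or without CON replicate 1. Its log2 fold change was 0.21 ± 0.22 with all libraries and -0.10 ± 0.06 without CON replicate 1, and it was called in neither fit.

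The Tgtp proteins are effectors that arrive early at the parasite vacuole. Tgtp1 had 65.1, 63.9 and 58.1 CPM in CKO libraries and 50, 88.8 and 88.6 CPM in CON libraries. Tgtp2 had 77.7, 73.2 and 68.4 CPM in CKO libraries and 47.2, 77.2 and 83 CPM in CON libraries. Both groups overlapped for each gene with all libraries, and without CON replicate 1 they separated for Tgtp1 but not for Tgtp2. The log2 fold changes were -0.27 ± 0.17 for Tgtp1 and 0.09 ± 0.16 for Tgtp2, and without CON replicate 1 they were -0.52 ± 0.06 and -0.14 ± 0.06. The pair is nearly identical: 81.2% of the 50-base words of Tgtp1 exons and 86.6% of those of Tgtp2 exons occur in other genes, most of them in each other, so the split of reads between the pair is uncertain. The ratio of Tgtp1 to Tgtp2 CPM was 0.838, 0.873 and 0.848 in CKO libraries and 1.06, 1.15 and 1.07 in CON libraries, so the groups did not overlap and CON replicate 1 did not stand apart in it. Counted together, the pair had a log2 fold change of -0.09.

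Over the 5 chromosome 11 genes, 0 were called with all libraries by edgeR (0 at an unadjusted p under 0.05) and 0 by DESeq2, and the median log2 fold change was 0.07. Without CON replicate 1, Irgm2, Igtp and Tgtp1 were called lower, 0 were called higher, and the median was -0.24. The direction seen for Irgm1, Igtp and Tgtp2 thus depends on 1 library.

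The chromosome 18 IRG genes were all higher in CKO. Iigp1, the effector Irga6 and by far the most abundant of the 4, had 192, 184 and 183 CPM in CKO libraries and 62.6, 141 and 143 CPM in CON libraries. Every CKO library was above every CON library. Its log2 fold change was 0.70 ± 0.22, a 1.63-fold difference, and 0.38 ± 0.04 (1.31-fold) without CON replicate 1. This call was lost in DESeq2, where the value was 0.69, and when any 1 CKO library was left out, where the values were 0.68 to 0.71. In bulk RNA, fewer cells of a type and less RNA per cell cannot be told apart.

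Gm4951, an IRG gene at low level, had 5.36, 6.64 and 7.48 CPM in CKO libraries and 0.591, 1.41 and 2.14 CPM in CON libraries, which rest on 342 and 66 reads in all. The groups did not overlap, and CON replicate 1 was lowest. For Gm4951 the log2 fold change was 2.28 ± 0.32, and 1.85 ± 0.24 without CON replicate 1. Gm4841 had 2.47, 3.26 and 2.53 CPM in CKO libraries and 0, 0.806 and 0.389 CPM in CON libraries, from 146 and 18 reads. CON replicate 1 had 0 of those reads. For Gm4841 the value was 2.90 ± 0.56, and 2.19 ± 0.37 without that library. Gm5970, the pseudogene, had 2.52, 2.98 and 2.96 CPM in CKO libraries and 0.394, 1.34 and 0.713 CPM in CON libraries, from 149 and 39 reads. The pseudogene's value was 1.83 ± 0.35, and 1.44 ± 0.32 without CON replicate 1. Pooled over libraries, the ratio of CKO to CON reads was 4.94 for Gm4951, 7.74 for Gm4841 and 3.64 for Gm5970, with exact 95% intervals for counting error alone of 3.79 to 6.54, 4.73 to 13.4 and 2.55 to 5.33.

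Gm5970 lies on the same strand within the span of Gm4951, with no exon base in common. Of the 50-base words in exons, 4.62% for Gm4951, 0.943% for Gm5970, 10% for Gm4841 and 1.69% for Iigp1 occur in other genes. Counted together, Gm4951 and Gm5970 had a log2 fold change of 2.13. The median over the 4 chromosome 18 IRG genes was 2.06 with all libraries and 1.64 without CON replicate 1.

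Smim3 had the largest fold change of the 10 with all libraries. It had 22.3, 22.7 and 28.4 CPM in CKO libraries and 2.61, 2.01 and 1.81 CPM in CON libraries, from 1292 and 111 reads. The CKO libraries were all far above the CON libraries, and CON replicate 1 was the highest of the CON group, where it was the lowest for the 9 IRG genes. On the log2 scale the difference was 3.48 ± 0.16, an 11.2-fold difference, and 3.66 ± 0.17 without CON replicate 1. No 50-base word of its exons occurs in another gene.

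**Figure D2:**
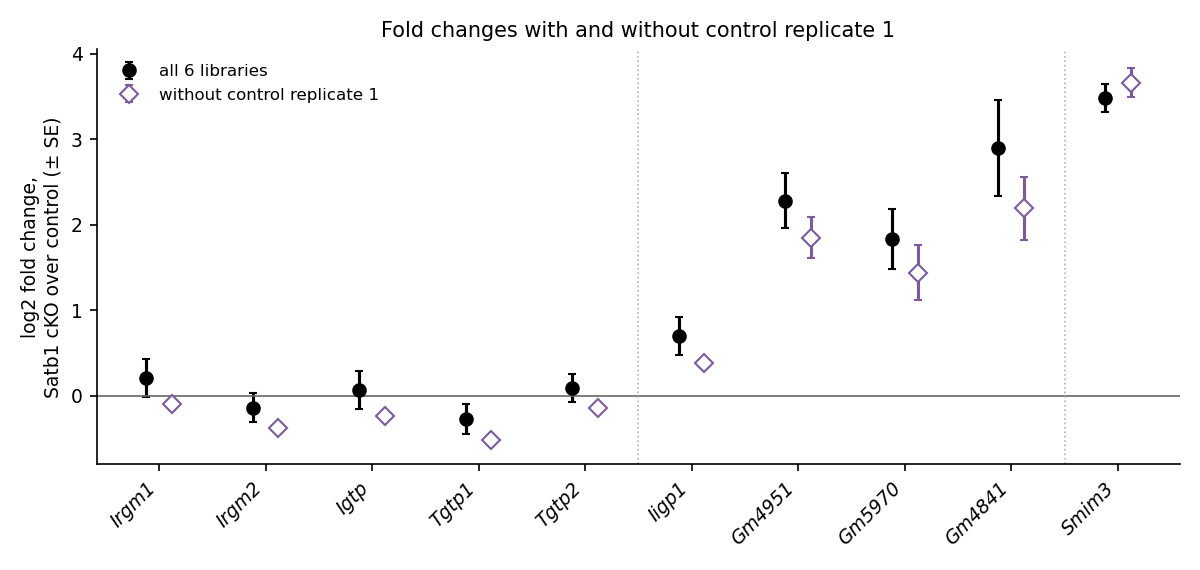
Log2 fold change of CKO over CON (± SE) of the 10 genes with all 6 libraries and without CON replicate 1. The chromosome 11 genes move from around 0 to values of -0.52 to -0.10, while the chromosome 18 genes stay above 0 in both fits, from 0.38 for Iigp1 to 3.66 for Smim3 without that library.

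The contrast between the chromosomes can also be read within each library. The 5 chromosome 11 genes summed to 833, 782 and 744 CPM in CKO libraries and 455, 929 and 927 CPM in CON libraries. The 4 chromosome 18 IRG genes summed to 203, 197 and 196 CPM in CKO libraries and 63.6, 145 and 146 CPM in CON libraries. Both sums were lowest in CON replicate 1. The ratio of the chromosome 11 sum to the chromosome 18 sum was 4.11, 3.96 and 3.79 in CKO libraries and 7.16, 6.41 and 6.36 in CON libraries, so the groups did not overlap. On the log2 scale the ratio averaged 1.98 ± 0.0587 in CKO and 2.73 ± 0.0954 in CON (SD, n = 3 each), a difference of -0.75, and leaving out any 1 library gave -0.78 to -0.69. The sums are mostly 2 genes: Igtp made up 48.6% to 49.6% of the chromosome 11 sum in CKO and 44.7% to 49% in CON, and Iigp1 made up 93.4% to 94.9% of the chromosome 18 sum in CKO and 97.5% to 98.5% in CON. Without these 2 genes the difference was -2.36.

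Per length, Igtp was the most abundant of the 10 in both groups, at 191 ± 8.68 RPKM in CKO and 183 ± 71.4 RPKM in CON (CPM per kb of exon, SD, n = 3 each). In CKO, Iigp1 came next at 32.1 ± 0.842 RPKM, then Irgm2 at 29.5 ± 1.9, Irgm1 at 26.6 ± 2.2, Tgtp2 at 24.9 ± 1.57 and Tgtp1 at 19.5 ± 1.18 RPKM. Iigp1 and Irgm2 overlapped by 1 library, Irgm2 overlapped with Irgm1, and Irgm1 with Tgtp2, so the ranges of these neighbours overlapped, although each pair kept this order within every CKO library. Tgtp1 and Tgtp2 did not overlap in CKO. In CON, Iigp1 stood sixth at 19.8 ± 7.87 RPKM, below Irgm2 (32.7 ± 9.81), Tgtp1 (23.6 ± 6.96), Tgtp2 (23.5 ± 6.54) and Irgm1 (23.2 ± 8.8), all 5 overlapping. Within every CON library, however, Iigp1 was the lowest of these 5, at 10.8, 24.3 and 24.5 RPKM. The remaining genes were far lower. In CKO, Smim3 had 3.58 ± 0.495 RPKM, Gm4951 had 2.45 ± 0.405, Gm5970 had 2.32 ± 0.212 and Gm4841 had 0.97 ± 0.155, and only Gm4951 and Gm5970 overlapped among neighbours in this order. In CON, Gm5970 had 0.671 ± 0.397 RPKM, Gm4951 had 0.522 ± 0.293, Smim3 had 0.314 ± 0.0605 and Gm4841 had 0.14 ± 0.142, and each overlapped with the next. Smim3 stood seventh in CKO and ninth in CON.

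**Figure D3:**
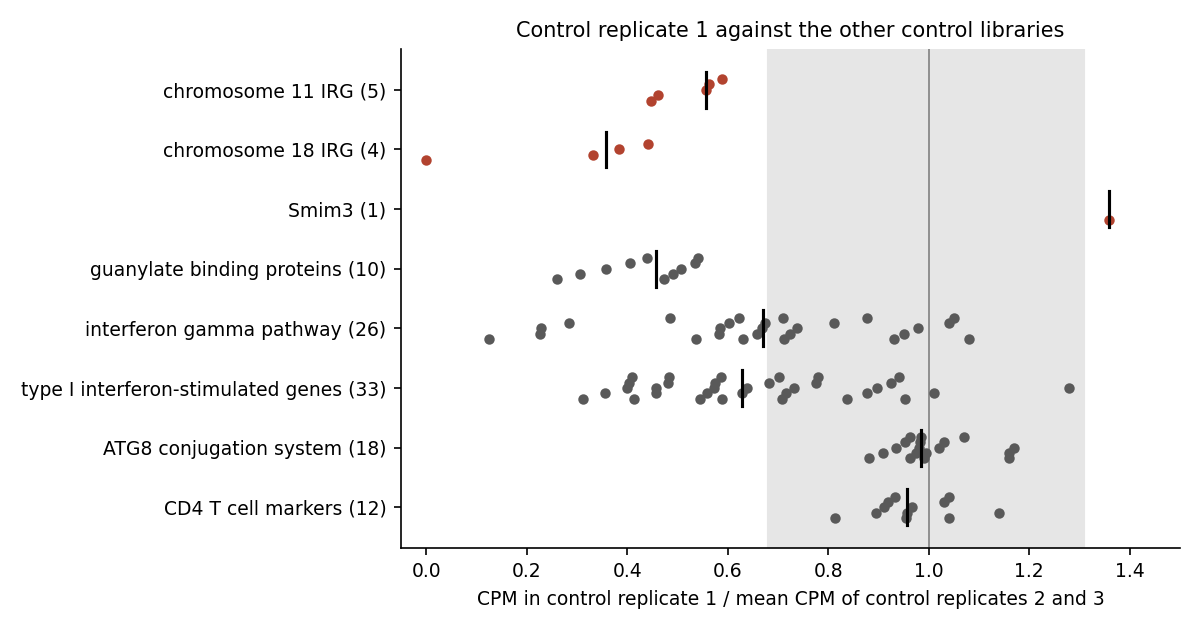
CPM of CON replicate 1 divided by the mean of CON replicates 2 and 3, 1 point a gene, for the 2 IRG groups, Smim3 and 5 lists of genes. Black bars are medians, and the grey band runs from the 5th to the 95th percentile of all genes tested (0.681 to 1.31). The band, unlike the points, was computed with a small constant added to both CPM terms. IRG and guanylate binding protein genes lie below the band, with medians of 0.557, 0.358 and 0.457, while the ATG8 and CD4 T cell lists centre near 1.

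Of 10 further genes listed as IRG or IRG-like, 6 were tested, and 2 were called higher and 3 lower in CKO, beside 21.6% higher and 20.7% lower over all genes tested. On chromosome 18, F830016B08Rik (RefSeq synonym Ifgga4) had 72 reads in CKO and 3 in CON, a 22.9-fold ratio with an exact 95% counting interval of 7.53 to 114 (log2 fold change 4.36, SE 0.51). It passed the low-count filter only through its CKO libraries, with 0 CON libraries above 0.584 CPM, so no p is given for it. On chromosome 11, Gm12185 (Irgb2b1) had 17.6, 15.7 and 15.7 CPM in CKO libraries and 5.17, 11.7 and 13.2 CPM in CON libraries and was called higher (0.74, SE 0.25, adjusted p = 0.0318, from the same edgeR fit as all adjusted p-values here). That p reached 0.0923 when single libraries were left out, and 7% of Tgtp1's exon bases are shared with Gm12185. Next to the Tgtp genes, 9930111J21Rik1 (-0.88, SE 0.20, adjusted p = 0.00403) and 9930111J21Rik2 (-0.81, SE 0.11, adjusted p = 0.000178) were lower. Gm8995, a chromosome 7 entry whose place in the family the annotation does not give, was lower (-0.70, SE 0.13, adjusted p = 0.00103). Irgq, which is not interferon-inducible, had 30.3, 29.6 and 31.2 CPM in CKO and 29.5, 28.9 and 28.6 CPM in CON and was not called (0.06, SE 0.06, adjusted p = 0.426). The median of the 6 was -0.32.

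Genes around the loci were taken by position, within 500 kb of a member, which includes some of the IRG genes above. On chromosome 18, 10 of 26 annotated neighbours were tested, 5 were called higher and 2 lower, and the median log2 fold change was 0.20. Over all genes tested, 21.6% were called higher and 20.7% lower. F830016B08Rik and a pair of noncoding entries inside the span passed the low-count filter only through CKO, with 0 CON libraries above 0.584 CPM, so they had to differ and get no p here. AC132320.1, a lincRNA that overlaps F830016B08Rik on the opposite strand, had 95 reads in CKO and 1 in CON (log2 fold change 6.05, SE 0.60), a 90.6-fold ratio whose exact 95% counting interval was 15.9 to 3616. Since the strand setting of the counting is not given, reads of these overlapping genes cannot be told apart with certainty. AC151990.1, a processed pseudogene, had 285 reads in CKO and 12 in CON, a 22.7-fold ratio with an interval of 12.8 to 44.4 (4.46, SE 0.36).

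Beyond Smim3 the differences on chromosome 18 were small and mixed. Dctn4, a dynactin subunit 24.2 kb away, was higher (0.25, SE 0.06, adjusted p = 0.00365), as was Cd74, the MHC class II invariant chain 302 kb away (0.52, SE 0.15, adjusted p = 0.0167, up to 0.0787 with single libraries left out). Synpo, encoding the actin-binding protein synaptopodin, was lower (-0.61, SE 0.12, adjusted p = 0.00242), as was Ndst1, a heparan sulfate sulfotransferase (-0.26, SE 0.07, adjusted p = 0.00862). Rbm22 (0.14), Rps14 (0.02) and Tcof1 (-0.06) were not called.

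Around Irgm1, Tgtp1 and Tgtp2, 15 of 46 annotated neighbours were tested, 1 was called higher and 5 lower, and the median was -0.02. The share called over all genes, in either direction, was 42.3%. Ifi47, itself an interferon-inducible IRG gene (Irgd), had 165, 168 and 161 CPM in CKO libraries and 163, 280 and 279 CPM in CON libraries and was lower (-0.55, SE 0.16, adjusted p = 0.0153). Its value was -0.78 without CON replicate 1, and its adjusted p reached 0.0729 when single libraries were left out. Zfp62, a zinc finger gene, was lower (-0.42, SE 0.07, adjusted p = 0.00038), and Rack1, a ribosomal scaffold gene, had a difference of -0.07 (SE 0.03, adjusted p = 0.0474, up to 0.149 with single libraries left out). Gm12183, Gm25296, Snord96a, Snord95, Trim41, Psme2b, Olfr56, Gm12188 and Mgat1 were not called.

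Around Igtp and Irgm2, 12 of 51 annotated neighbours were tested, 3 were called higher and 2 lower, beside the same 42.3% over all genes, and the median was 0.06. Larp1, an RNA-binding regulator of ribosomal protein mRNAs (0.34, SE 0.04, adjusted p = 1.98e-05), Gemin5, of the SMN complex (0.18, SE 0.04, adjusted p = 0.00372), and the pseudogene Gm12254 (1.05, SE 0.33, adjusted p = 0.0242, up to 0.121 with single libraries left out) were higher. Galnt10, a glycosyltransferase (-0.54, SE 0.05, adjusted p = 5.58e-06), and 2010001A14Rik (-1.10, SE 0.28, adjusted p = 0.00828) were lower. Gm12250, for which RefSeq gives the synonym Irgb10, had 55.8, 51 and 43.9 CPM in CKO libraries and 25.2, 60.9 and 59 CPM in CON libraries, the same arrangement as Igtp (0.08, SE 0.25, adjusted p = 0.826). Without CON replicate 1 it was called lower (-0.26, adjusted p = 0.0211). Sap30l, Cnot8, Mrpl22, Zfp692, Zfp672 and Sh3bp5l were not called.

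**Figure D4:**
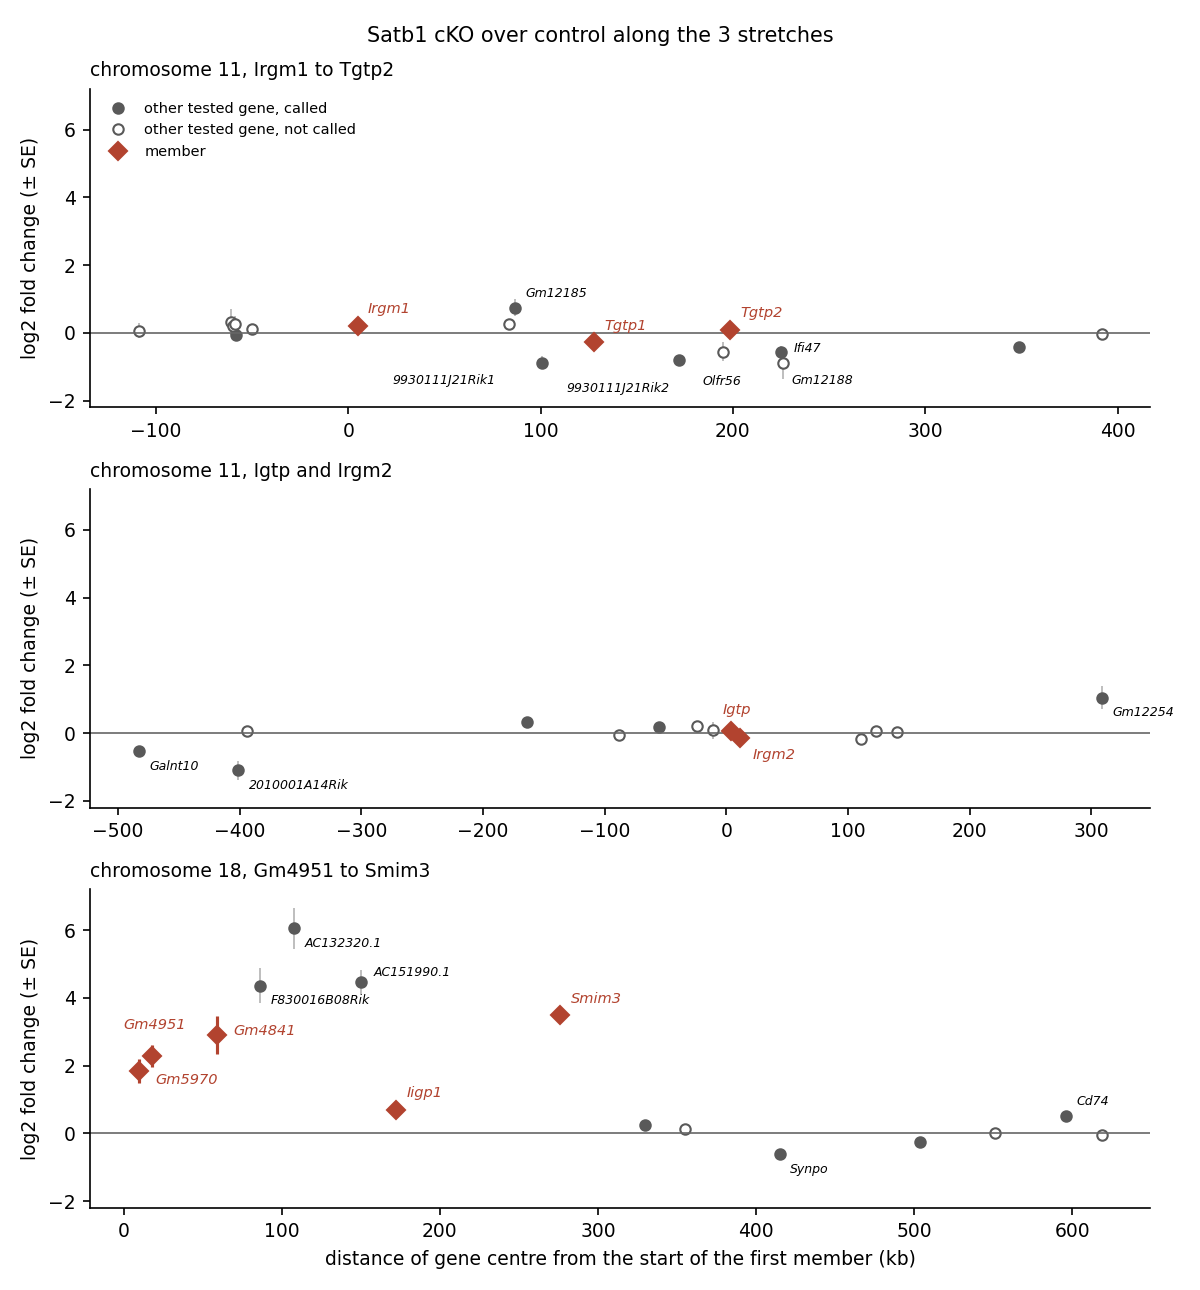
Log2 fold change of CKO over CON (± SE) against distance along the 3 stretches, for the listed genes (diamonds) and every other tested gene within 500 kb (filled where called), with neighbours named where their value is beyond 0.5 in size. Between Gm4951 and Smim3 on chromosome 18, values run from 0.70 for Iigp1 to 6.05 for AC132320.1. Both chromosome 11 stretches stay between -1.10 and 1.05. The listed genes were chosen on this contrast. F830016B08Rik, AC132320.1 and AC151990.1, drawn as called, passed the low-count filter only through CKO and had to differ.

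Genes of the interferon gamma pathway were listed for comparison with the IRG genes. Ifng, encoding interferon gamma itself, had 10.8, 6.47 and 14 CPM in CKO libraries and 0.295, 0.739 and 1.88 CPM in CON libraries (log2 fold change 3.49, SE 0.44, adjusted p = 8.12e-05). Ifng was lowest in CON replicate 1. Of the receptor chains, Ifngr1 was higher (1.48, SE 0.11, adjusted p = 2.17e-06) and Ifngr2 lower (-0.32, SE 0.08, adjusted p = 0.00591). The kinase gene Jak1 was lower (-0.26, SE 0.03, adjusted p = 0.00011). Irf1, the factor that acts directly on IRG promoters, had 216, 191 and 189 CPM in CKO libraries and 130, 223 and 224 CPM in CON libraries (0.05, SE 0.16, adjusted p = 0.822), and it was lower without CON replicate 1 (-0.18, adjusted p = 0.0189). Irf1 was thus lowest in CON replicate 1, as the listed IRG genes of both chromosomes were.

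Several interferon gamma targets were called. Cxcl10, a chemokine (3.94, SE 0.28, adjusted p = 1.04e-06), Irf8, a transcription factor (2.89, SE 0.21, adjusted p = 1.59e-06), and Socs1, the feedback inhibitor of JAK kinases (1.15, SE 0.13, adjusted p = 3.69e-05), rose, while Tapbp, encoding tapasin, fell (-0.27, SE 0.09, adjusted p = 0.0397; 0.159 at most with single libraries left out). Of 30 genes in the list, 26 were tested, 11 were higher and 4 lower, with a median of 0.30, beside 21.6% higher and 20.7% lower over all genes. Without CON replicate 1, 10 listed genes were higher and 7 lower of 27 tested, with a median of 0.08, beside 21.1% and 21.4% over all genes.

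Guanylate binding proteins (GBPs), a related family of interferon-inducible GTPases that act on the same vacuoles, were measured beside them. Of 11 genes, 10 were tested, 1 was called higher and 0 lower, beside 21.6% and 20.7% over all genes (0 lower at an unadjusted p under 0.05 and 0 in DESeq2). Gbp3 was the one called, at 61.8, 61 and 56.6 CPM in CKO libraries and 19.6, 40.4 and 42.3 CPM in CON libraries (0.83, SE 0.20, adjusted p = 0.00679). Without CON replicate 1, 1 was higher and 7 were lower, beside 21.1% and 21.4% over all genes. All 10 were lower in CON replicate 1 than in both other CON libraries, with a median ratio of 0.457.

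Of 34 genes listed as responsive to type I interferon or part of its receptor, 33 were tested, 5 were called higher and 7 lower, with a median of -0.16, beside 21.6% higher and 20.7% lower over all genes. Without CON replicate 1, 5 were higher and 19 lower, with a median of -0.40, beside 21.1% and 21.4%. Among those higher were Bst2, encoding tetherin (0.68, SE 0.05, adjusted p = 2.52e-06), the receptor chain Ifnar2 (0.38, SE 0.06, adjusted p = 0.000745), the receptor kinase Tyk2 (0.31, SE 0.04, adjusted p = 0.000237) and the antiviral enzyme gene Rsad2 (3.01, SE 0.54, adjusted p = 0.00101). Among those lower were Ifit2 (-1.09, SE 0.11, adjusted p = 1.61e-05), Ifi27l2a (-1.06, SE 0.12, adjusted p = 3.71e-05), Oas2 (-2.11, SE 0.40, adjusted p = 0.0014) and Mx2 (-1.86, SE 0.36), which had 0 CKO libraries above the filter's 0.584 CPM and so gets no p. The median ratio of CON replicate 1 was 0.629 over this list and 0.671 over the interferon gamma list.

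The ATG8 conjugation system, which IRG proteins depend on for targeting, had a median log2 fold change of 0.03. Of 18 genes tested, 3 were called higher and 1 lower, beside 21.6% and 20.7% over all genes. Sqstm1, a cargo receptor of autophagy (0.42, SE 0.05, adjusted p = 5.91e-05), and the ATG8 genes Gabarapl1 (0.58, SE 0.09, adjusted p = 0.000356) and Gabarap (0.21, SE 0.06, adjusted p = 0.0185) were higher, and Atg4a, an ATG8 protease, was lower (-0.21, SE 0.07, adjusted p = 0.0209). With single libraries left out, the adjusted p reached 0.0892 for Gabarap and 0.0598 for Atg4a, so both calls were lost. CON replicate 1 was level with the other CON libraries in this list, with a median ratio of 0.984.

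Markers of myeloid, dendritic and red cells were mostly called higher in CKO, and fewer of those of NK and B cells. The shares called over all genes tested were 21.6% higher and 20.7% lower. The 16 myeloid markers summed to 261, 165 and 308 CPM in CKO libraries and 111, 129 and 123 CPM in CON libraries, and 11 of 13 tested were higher. The 11 dendritic cell markers summed to 59.5 to 96.4 CPM in CKO and 30.9 to 42.2 CPM in CON, with 5 of 6 tested higher. Those 5 were Zbtb46, Batf3, H2-Ab1, H2-Aa and H2-Eb1, while Flt3 was level (0.00). Among those not tested, Xcr1, Clec9a and Cd209a had 14, 3 and 2 reads in CKO and 13, 2 and 1 in CON. Itgax (55 and 10 reads) and Siglech (10 and 1), also not tested, had more in CKO. The 8 NK cell markers summed to 15.3 to 22.4 CPM in CKO and 8.12 to 11.1 CPM in CON (2 of 4 higher), and the 11 B cell markers to 247 to 309 CPM in CKO and 230 to 294 CPM in CON (2 of 7 higher). The 8 red cell markers summed to 310 to 1862 CPM in CKO and 25.4 to 31.9 CPM in CON, with 7 of 7 tested higher. The 12 CD4 T cell markers were all detected and summed to 2586 to 2675 CPM in CKO and 3408 to 3526 CPM in CON, with 9 lower and 1 higher, and Cd4 itself was lower (-1.75). None of these marker lists had a gene at 0 in all libraries. The part of these cells in the higher values of Smim3 and the chromosome 18 IRG genes was not tested.

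Across the 6 libraries, the genes whose log2 CPM was most like that of Igtp, among 9562 genes with a mean of at least 5 CPM, were Gm12250 (Pearson r = 0.990), Gbp8 (0.989) and Tgtp2 (0.988). Those most like Iigp1 were Tbx21, encoding the Th1 factor T-bet (0.998), Gm12185 (0.995) and Gbp3 (0.993). Those most like Smim3 were Nckap1 (1.000), Pgrmc1 (0.999) and Atp10a (0.999). Between the members themselves, r was 0.831 for Igtp and Iigp1, 0.649 for Iigp1 and Smim3, and 0.117 for Igtp and Smim3. These values describe 6 libraries of 2 groups that share CON replicate 1, and r values near 1 among 9562 genes and 6 points carry little information.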

How the data were processed

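The deposited files hold raw counts, 1 table per library, in whole reads per gene and not normalized. The submitters' processing notes name STAR 2.7.3a, HTSeq 0.12.4 and mm10. The release of the annotation and the setting for strand were not given in the sources used here. Overlapping genes on opposite strands, and near-identical genes whose reads align to several places, are counted with uncertainty. The 5 summary lines name no gene and entered neither library sizes nor tests. Among them, reads without a feature were 7.32% to 7.61% of all reads in CKO and 9.18% to 9.5% in CON, ambiguous reads 5.4% to 5.57% over all libraries, and reads with several alignments 2.92% to 3.16%. Depth was 14895389 to 20266626 reads on genes per library, and intervals given for read ratios cover counting error only.

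Gene models came from GENCODE M21 (GRCm38), which matched 55141 of 55401 genes, and positions are 1-based. Counts were fitted over the whole table with edgeR 4.0.16 in R 4.3.3 (TMM scaling, filterByExpr, glmQLFit and glmQLFTest, group as the only term), which tested 13364 genes. A gene was called at an adjusted p (Benjamini-Hochberg) below 0.05. Log2 fold changes are CKO over CON. CPM was computed with TMM-scaled library sizes, and RPKM by dividing by the union of annotated exons. Likeness between genes was the Pearson correlation of log2 CPM with a pseudocount of 0.5. The script was tested on simulated counts with known changes. Alternatives were DESeq2 1.42.0, DESeq2's size factors in edgeR, no low-count filter, a replicate block, leaving out each library in turn, a 200 kb window for neighbours, and summing near-identical or nested genes. The sums of Igtp with Irgm2 and of Gm4951 with Gm5970 were added after seeing the data.

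The members and lists were chosen with earlier results of these data known. Named genes were all members, Satb1, every other IRG gene and neighbour tested, up to 4 called genes of smallest p per direction from each list, Ifng, Ifngr1, Ifngr2 and Irf1, and the 3 genes most like Igtp, Iigp1 and Smim3. One further gene that the rule takes is not reported here. Most neighbours that were not called are named without values. Cd4 and the dendritic cell markers given by name were taken from their marker lists after their values were seen.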

Additional observations from a re-analysis of the deposited data

How the results depend on the processing

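The 5 genes of chromosome 18 kept a positive fold change under every alternative, although Iigp1 was not called in DESeq2 or without any 1 CKO library (4 members called higher there), and Smim3 stayed between 3.36 and 3.66 (log2) with single libraries left out. Leaving out CON replicate 1 turned the direction of Irgm1 (-0.10), Igtp (-0.24) and Tgtp2 (-0.14), and with single libraries left out these 3 ranged from -0.10 to 0.39, from -0.24 to 0.24 and from -0.14 to 0.24. Without the low-count filter, 6 members were called higher, Irgm1 (0.19) being the added one, and 2 lower (Irgm2 and Tgtp1); with single libraries left out, 0 to 3 were called lower. Without the filter, 4 GBPs were called higher and 5 lower, and 11 genes of the type I interferon list were lower. Over all genes, 3053 were higher and 3017 lower of 26132 tested in that fit. The cause of the shifted list counts was not tested. In DESeq2, 1 other IRG gene was higher, 2 genes of the interferon gamma list were lower and 0 of the ATG8 list were lower, and again the cause was not tested. DESeq2 called 2522 higher and 2392 lower of 13364 genes. With single libraries left out, calls ranged from 1 to 2 for other IRG genes higher, from 0 to 7 for GBPs lower, from 2 to 7 for the interferon gamma list lower, from 5 to 19 for the type I interferon list lower and from 0 to 1 for the ATG8 list lower. Over all genes, those fits called 2396 to 2898 higher and 2275 to 2937 lower of 13639 to 13885 tested. The difference of the log2 ratio of the chromosome sums, -0.75, was -2.36 without the most abundant gene of each chromosome, which leaves genes of low counts on chromosome 18. In 149 other pairings of a count or ratio with an alternative, the value stayed within 1.5 times the main count or 1 SD. Same-numbered libraries of the 2 groups did not deviate together (r = 0.026, -0.00985 and 0.024), so the numbers are not taken to pair samples. A replicate block gave 2861 genes higher and 2702 lower over all genes, against 2885 and 2766, and the same 5 higher and 0 lower among members. Depth limits Gm4841, Gm5970, F830016B08Rik and AC132320.1, which had 1 to 39 CON reads in all.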
